A study of Mus musculus with 8 samples.

Results

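The nuclear receptor genes of the mouse were compared between Purkinje cells, which carry the impulse through the lower part of the cardiac conduction system, and working myocytes of the ventricles. A list of 41 receptor genes was matched to probe sets that name a single gene, and where a gene had several, the brightest by mean log2 over the 8 arrays was read. Such a probe set named 39 of the 41, among 18193 genes in all, and Nr1h2 and Nr2e3 were not analysed here. The mean signal of 31 of the 39 was above the limit for testing, a signal of 19.9 (log2 4.31, the 40th percentile of all probe sets), which left 12318 genes in all. The receptors Rorb, Vdr, Nr1i2, Hnf4a, Nr2e1, Esr1, Esr2 and Pgr were under that limit. Their signals ran from 1.7 to 43.3, with 15 of 64 values above 19.9, and no difference was tested for them.

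The series held 4 arrays of each cell type, 1 of each from every one of 4 separate hearts of adult male mice. Both groups carried the same alleles, labelled Cntn2-EGFP, a-MHC-Cre and floxed-tdTomato, on a mixed background of the CD1, C57/B6 and 129S1 strains, and no treatment is named for either. The a-MHC promoter drives Cre in cardiac myocytes, and Cntn2 is expressed in the conduction system. Cells were freed by enzymes after Langendorff perfusion and separated by FACS, and the sort gates are not given in the sources used here. The question was which genes set Purkinje cells apart. Same-numbered arrays were taken as 1 heart and entered as a block. Array number limits the precision of every value.

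Nuclear receptors are transcription factors, many of which change their activity when a small lipophilic ligand such as a hormone, a retinoid or a fatty acid binds to them. Many bind DNA as a pair with a retinoid X receptor, and they act by exchanging corepressor for coactivator complexes. In the heart, thyroid hormone receptors set myosin and ion channel genes, while peroxisome proliferator-activated receptors (PPARs) and estrogen-related receptors govern fat oxidation and mitochondrial genes. The COUP transcription factors Nr2f1 and Nr2f2 are orphan receptors, and in mice Nr2f2 is needed for atrial chamber identity and for venous identity of endothelium.

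The sequences shown are the 250 bases upstream of the annotated transcript start of 3 receptors that rose in Purkinje cells, the COUP pair because its members moved alike and Nr4a1 because its window repeats a short motif. They come from RefSeq on GRCm38.p6 and are written 5′ to 3′ on the gene's strand. Nr2f2 is read from the minus strand at chr7:70366747-70366996, Nr2f1 from the minus strand at chr13:78198874-78199123, and Nr4a1 from the plus strand at chr15:101266596-101266845. The first and second windows lie just outside the annotated genes, and that of Nr4a1 lies inside the span of the gene, upstream of 1 of its transcripts. Capitals mark TGCGTCA.
Nr2f2: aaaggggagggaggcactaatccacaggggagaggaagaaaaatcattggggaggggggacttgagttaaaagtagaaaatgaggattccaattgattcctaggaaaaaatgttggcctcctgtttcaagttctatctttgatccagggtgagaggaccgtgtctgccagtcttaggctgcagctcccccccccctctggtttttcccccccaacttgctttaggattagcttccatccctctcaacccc
Nr2f1: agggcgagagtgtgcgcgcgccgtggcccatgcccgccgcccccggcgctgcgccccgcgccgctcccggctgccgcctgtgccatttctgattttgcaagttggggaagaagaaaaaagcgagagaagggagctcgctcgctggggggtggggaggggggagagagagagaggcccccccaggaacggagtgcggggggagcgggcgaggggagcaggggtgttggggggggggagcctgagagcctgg
Nr4a1: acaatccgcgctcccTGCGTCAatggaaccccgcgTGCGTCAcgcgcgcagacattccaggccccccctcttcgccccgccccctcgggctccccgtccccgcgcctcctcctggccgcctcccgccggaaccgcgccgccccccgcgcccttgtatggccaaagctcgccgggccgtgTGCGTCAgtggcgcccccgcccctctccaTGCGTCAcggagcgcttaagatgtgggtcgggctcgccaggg

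TGCGTCA, a 7-base relative of the cAMP response element TGACGTCA that does not overlap it in these windows, occurred 4 times upstream of Nr4a1. Both strands were searched. It occurred at least once in 1.75% of 32851 annotated windows of the same length, and the Nr4a1 window was the only 1 of them with 4 or more (0.00304%). This motif was picked after the sequence had been read. The nuclear receptor half-site AGGTCA was in 9 of 59 windows of the listed receptors (15.3%), from 8 of 38 genes with an entry, against 14.0% of all windows. The steroid receptor half-site AGAACA was in 4 of the 59 (6.78%, against 16.1%), and TGACGTCA in 1 (1.69%, against 1.55%). None of these half-sites or response elements was in the 3 windows printed. Among the annotated windows of Pparg, which also rose and whose windows are not printed, 2 of 3 held AGGTCA once. A match or its absence describes the letters in the window and nothing more.

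The labels were checked on Cntn2 and Pcp4. Cntn2, whose reporter the mice carried and which is therefore no independent check, ran from 222.3 to 1255.9 on the Purkinje arrays and from 2.9 to 24.0 on the ventricular ones. Pcp4, a calmodulin-binding peptide of Purkinje fibres, ran from 591.9 to 3564.9 against 15.4 to 44.5. The lowest Purkinje value of both was on replicate 1. Of 11 conduction markers, Cntn2 and Pcp4 among them, 9 were higher in Purkinje cells (against 9.64% of all genes). The mean log2 signal of Cntn2 on the ventricular arrays alone was under the limit. Cntn2 was thus tested only because of its Purkinje arrays, and its call is not separate support. Pcp4 and this list were taken with earlier results of these data known, so they are no independent check either. Of 12 general cardiomyocyte markers 1 was lower (against 7.48% of all genes) and none was higher. Markers of other cells moved with the contrast, and none of the marker lists below had a signal of 0 on any array. Of 14 endothelial markers 13 were higher in Purkinje cells (against 9.64% of all genes), as were 10 of 11 smooth muscle and pericyte markers and 9 of 12 fibroblast markers. So were 2 of 7 tested macrophage markers, 2 of 4 Schwann cell and neuron markers and 0 of 2 epicardial markers. Other genes of these last lists were under the limit. Gapdh control signals at the 3′ end relative to the 5′ end were at a ratio of 1.20 to 1.28 in hearts 1 and 2 and 1.51 to 1.72 in hearts 3 and 4. That ratio was 1.24, 1.28, 1.64 and 1.72 on Purkinje arrays 1 to 4, higher in each heart than on ventricular arrays (1.23, 1.20, 1.51 and 1.51). The beta-actin ratio was 0.67 to 0.78 on Purkinje and 0.71 to 0.82 on ventricular arrays and did not part the pairs of hearts. In bulk samples fewer cells of a type and less RNA per cell cannot be told apart.

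With the heart as a block, 6 of 31 tested receptors passed an adjusted p of 0.05 (19.4%), where 17.1% of all tested genes did, so the family as a whole stood close to the background. Higher in Purkinje cells were Nr2f1, Nr2f2, Pparg and Nr4a1 (4 of 31, 12.9%, against 9.64% of all genes), and lower were Ppara and Rxrg (2 of 31, 6.45%, against 7.48%). The other 25 receptors did not pass. The median log2 difference, Purkinje minus ventricular, was 0.10 over the 31 receptors and 0.05 over all tested genes. Without the block none of the 31 passed in limma (2.96% of all genes did), and 4 of 31 had an unadjusted p under 0.05 (12.9%, against 22.0% of all genes). With the block that count was 9 of 31 (29.0%, against 31.3%).

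Direction was shared by all hearts in 10 of 31 receptors (32.3%, against 38.2% of all genes), 6 of them higher (19.4%, against 21.0%) and 4 lower (12.9%, against 17.2%). These were the 6 that passed together with Rarg and Nr4a2, which were higher, and Nr2c1 and Nr2f6, which were lower. The groups did not overlap in 1 receptor, Rxrg (3.23%, against 12.7%). By the authors' deposited p-value, unadjusted, 5 of 31 receptors in their table were under 0.05 (16.1%, against 21.2% of all genes): Rarg (0.00391), Rxrg (0.00976), Nr2c1 (0.0146), Nr4a1 (0.0256) and Nr2f2 (0.0399). No gene passed when those p-values were adjusted, against 2617 under 0.05 before adjustment.

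**Figure D1:**
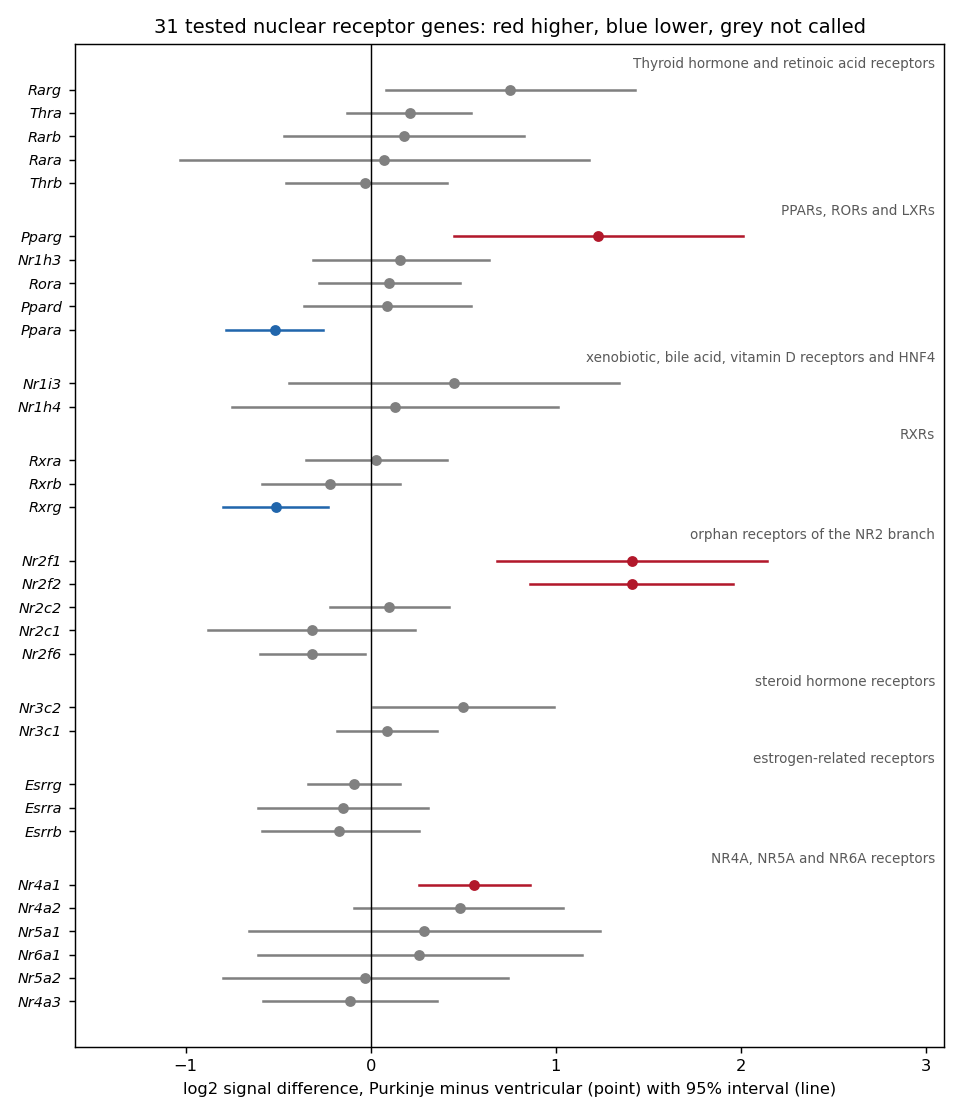
Log2 signal difference, Purkinje minus ventricular, of the 31 tested receptors (points) with 95% intervals (lines), ordered by role. Red points passed as higher (4), blue as lower (2), and grey did not pass (25).

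The COUP pair showed the largest differences in the family. Nr2f2 (chr7:70351946-70366746) gave signals of 373.3, 396.3, 197.9 and 214.0 on Purkinje arrays 1 to 4 and of 302.4, 105.3, 51.3 and 76.6 on ventricular arrays 1 to 4. Each heart was higher on its Purkinje array, but the groups overlapped, because ventricular array 1 lay above Purkinje arrays 3 and 4. The log2 difference was 1.41 ± 0.25 (SE, 95% interval 0.86 to 1.96), or 2.66-fold (limma adjusted p = 0.0036, and 0.113 without the block). By heart it was 0.30, 1.91, 1.95 and 1.48, so heart 1 stood apart from the others. The second probe set of the gene gave 0.82 ± 0.36 and did not pass among all probe sets (limma adjusted p = 0.151).

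Nr2f1 (chr13:78188971-78198873) read 131.6, 178.7, 50.0 and 43.4 on the Purkinje arrays and 85.5, 35.2, 26.4 and 13.0 on the ventricular arrays of hearts 1 to 4. All hearts were higher on the Purkinje array, and ventricular array 1 again lay above Purkinje arrays 3 and 4. Ventricular array 4 was under the limit of 19.9. The log2 difference was 1.41 ± 0.33 (95% interval 0.68 to 2.14), or 2.65-fold (limma adjusted p = 0.0145, and 0.199 without the block). With 16 added to each signal before log2 it was 1.04. Without heart 2 Nr2f1 gave 1.09 and no longer passed (limma adjusted p = 0.108), whereas Nr2f2 passed without any 1 heart, at 1.23 to 1.78.

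Pparg (chr6:115360879-115490404), the fat cell PPAR and target of the glitazone drugs, had signals of 199.8, 90.2, 30.8 and 38.0 on Purkinje arrays and of 56.4, 80.1, 8.1 and 19.3 on ventricular arrays. Hearts 1 and 2 were high on both arrays and hearts 3 and 4 low on both, with ventricular arrays 3 and 4 under 19.9. Each heart was higher on its Purkinje array, by 1.82, 0.17, 1.93 and 0.98 on the log2 scale. The difference was 1.23 ± 0.36 (95% interval 0.45 to 2.01; limma adjusted p = 0.0349, and 0.37 without the block). With any 1 heart left out it no longer passed (0.99 to 1.58, limma adjusted p = 0.0503 to 0.143), nor did it after quantile normalization (0.92, limma adjusted p = 0.126).

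Vascular and stromal marker lists were also higher in Purkinje cells, and their levels by array are given beside those of the 3 receptors. As log2 deviations from the 8-array mean, the endothelial list averaged 1.26, 1.01, 0.29 and -0.21 on Purkinje arrays 1 to 4 and 0.47, -0.79, -1.14 and -0.88 on ventricular arrays 1 to 4. Nr2f2 deviated by 1.11, 1.20, 0.20 and 0.31 and by 0.81, -0.71, -1.75 and -1.17 on those arrays. Nr2f2 was highest on Purkinje arrays 1 and 2 and, among ventricular arrays, on array 1. The endothelial, the smooth muscle and pericyte, and the venous and endocardial lists all shared that order. The list of immediate early genes, given below with Nr4a1, shared it too. On Purkinje arrays 1 to 4 the fibroblast list averaged 0.52, 0.74, 0.63 and 0.20 and the macrophage list 0.96, 0.23, 0.60 and -0.37. Those lists did not share the order. For smooth muscle and pericytes the averages were 1.23, 1.06, 0.28 and 0.16 and 0.07, -0.78, -0.8 and -1.23. For the venous and endocardial list they were 0.79, 0.77, 0.28 and -0.27 and 0.47, -0.44, -0.79 and -0.81. Nr2f1 deviated by 1.34, 1.78, -0.05 and -0.26 and by 0.72, -0.56, -0.98 and -2.0. Pparg deviated by 2.17, 1.03, -0.53 and -0.22 and by 0.35, 0.85, -2.45 and -1.20. On ventricular array 2 Pparg was thus above its mean, where the endothelial, smooth muscle and fibroblast lists were at -0.79, -0.78 and -0.52, and on Purkinje array 3 it was below its mean, where they were at 0.29, 0.28 and 0.63. The summed endothelial signal ran from 4092 to 9616 on Purkinje and from 1810 to 5646 on ventricular arrays. The smooth muscle and pericyte sum ran from 7816 to 14372 against 4860 to 8527, with Cnn1 under the limit. The fibroblast sum ran from 7237 to 10694 against 3164 to 6420. Of 7 venous and endocardial markers 4 were higher (against 9.64% of all genes), with sums of 937 to 2354 against 552 to 1566 and Plvap under the limit. In the adipocyte list 1 of 2 tested genes was higher, with sums of 3531 to 7651 against 2399 to 6311, and Adipoq, Cidec and Lep were under the limit. Nearly all of that sum was Fabp4, the gene that was higher, at 3480.6 to 7583.7 against 2341.4 to 6260.4. Fabp4 is also known from capillary endothelium, so the sum does not measure fat cells. The part of these cells in the Nr2f1, Nr2f2 and Pparg differences was not tested.

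**Figure D2:**
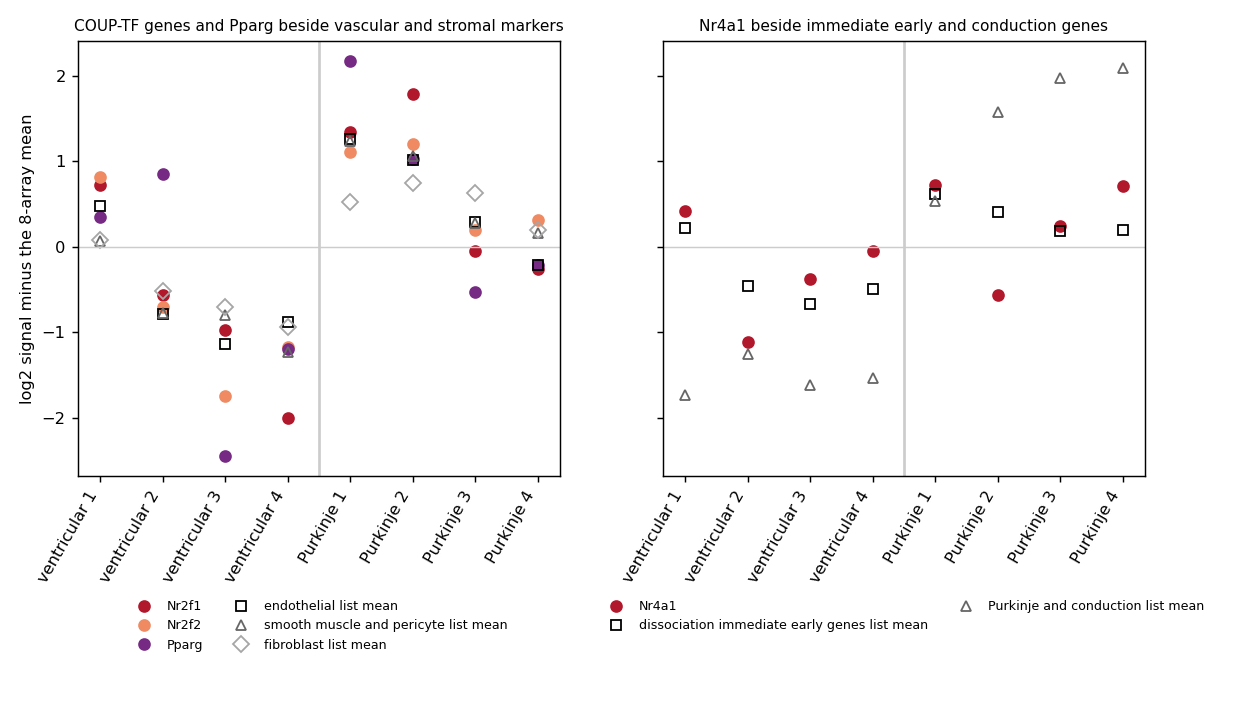
Log2 signal minus the 8-array mean on each array, for Nr2f1, Nr2f2 and Pparg beside the vascular and stromal lists (left) and for Nr4a1 beside the immediate early and conduction lists (right). On ventricular array 1 Nr2f2 is at 0.81, above the other ventricular arrays. The endothelial (0.47), smooth muscle and pericyte (0.07) and fibroblast (0.08) lists are also highest there among ventricular arrays.

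Nr4a1 (chr15:101253902-101274795), an orphan receptor induced as an immediate early gene, had signals of 586.6, 241.5, 420.2 and 579.7 on Purkinje arrays and of 476.3, 164.5, 273.4 and 342.6 on ventricular arrays. Heart 2 was lowest in both groups, and each Purkinje array exceeded its own ventricular array although the groups overlapped. The log2 difference was 0.56 ± 0.14 (95% interval 0.26 to 0.86; limma adjusted p = 0.0174, and 0.379 without the block). By heart it was 0.30, 0.55, 0.62 and 0.76. After median centring the value was 0.15 (limma adjusted p = 0.541). The median of all tested genes was 0.05 as deposited, -0.05 after quantile normalization and -0.35 after centring, and Nr4a1 was 0.50 above it as deposited and 0.59 above it after quantile normalization. Centring shifts all genes alike, so the distance after it is the same by construction. Of 18 other immediate early genes of tissue dissociation 13 were higher in Purkinje cells (against 9.64% of all genes) and none lower. Their summed signals were 17882 to 22265 against 12126 to 17484, with none under the limit. As log2 deviations from the mean over all arrays, their list averaged 0.62, 0.41, 0.18 and 0.2 on the Purkinje arrays in heart order. On the ventricular arrays it averaged 0.22, -0.46, -0.67 and -0.5. Nr4a1 deviated by 0.72, -0.56, 0.24 and 0.71 and by 0.42, -1.11, -0.38 and -0.05 on those arrays. On the Purkinje array of heart 2 Nr4a1 was thus below its mean and the list above its own. On every other array the signs were shared. The part of these genes in the Nr4a1 difference was not tested.

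The other members of that branch did not pass on the probe set used. Nr4a2 gave 0.48 ± 0.26 and was higher in all 4 hearts, and its 5 probe sets above the limit ran from -0.01 to 1.08, of which 2 passed among all probe sets (limma adjusted p = 0.034 and 0.04). Nr4a3, the remaining immediate early member, gave -0.11 (95% interval -0.58 to 0.36), and its 3 probe sets ran from -0.11 to 0.54. The lipid-binding orphan receptors Nr5a1 and Nr5a2 and the germ cell receptor Nr6a1 gave 0.29, -0.03 and 0.26, with signals between 15.4 and 44.6.

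Ppara (chr15:85734910-85806851), the PPAR that drives fatty acid oxidation in heart muscle, had signals of 888.3, 630.8, 805.1 and 877.6 on Purkinje arrays and of 1052.4, 875.1, 1158.4 and 1559.3 on ventricular arrays. All hearts were lower on the Purkinje array, and only ventricular array 2 fell among the Purkinje values. The log2 difference was -0.52 ± 0.12 (95% interval -0.78 to -0.26), which is 1.43-fold lower (limma adjusted p = 0.0121, and 0.138 without the block). Its other probe sets gave -0.76 and -0.51 (limma adjusted p = 0.00221 and 0.0708 among all probe sets). Ppara passed without heart 1 (-0.61) and not without heart 2, 3 or 4 (-0.53, -0.52 and -0.41; limma adjusted p = 0.0577, 0.0569 and 0.0797).

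Rxrg (chr1:167598362-167639623), the retinoid X receptor found mainly in muscle and brain, had signals of 321.9, 306.0, 340.3 and 349.1 on Purkinje arrays and of 415.8, 418.5, 538.1 and 520.8 on ventricular arrays. Every ventricular array lay above every Purkinje array. The log2 difference was -0.51 ± 0.13 (95% interval -0.80 to -0.23), or 1.43-fold lower (limma adjusted p = 0.0191, and 0.0863 without the block). By heart it was -0.37, -0.45, -0.66 and -0.58. As with Ppara, the call held without heart 1 (-0.56) and was lost without heart 2, 3 or 4 (-0.54, -0.47 and -0.49; limma adjusted p = 0.0654, 0.101 and 0.0758). The cardiomyocyte list had summed signals of 98023 to 104704 on Purkinje and 98113 to 120014 on ventricular arrays, with a median log2 difference of -0.10 and none of its 12 genes under the limit. Its part in the Ppara and Rxrg differences was not tested.

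**Figure D3:**
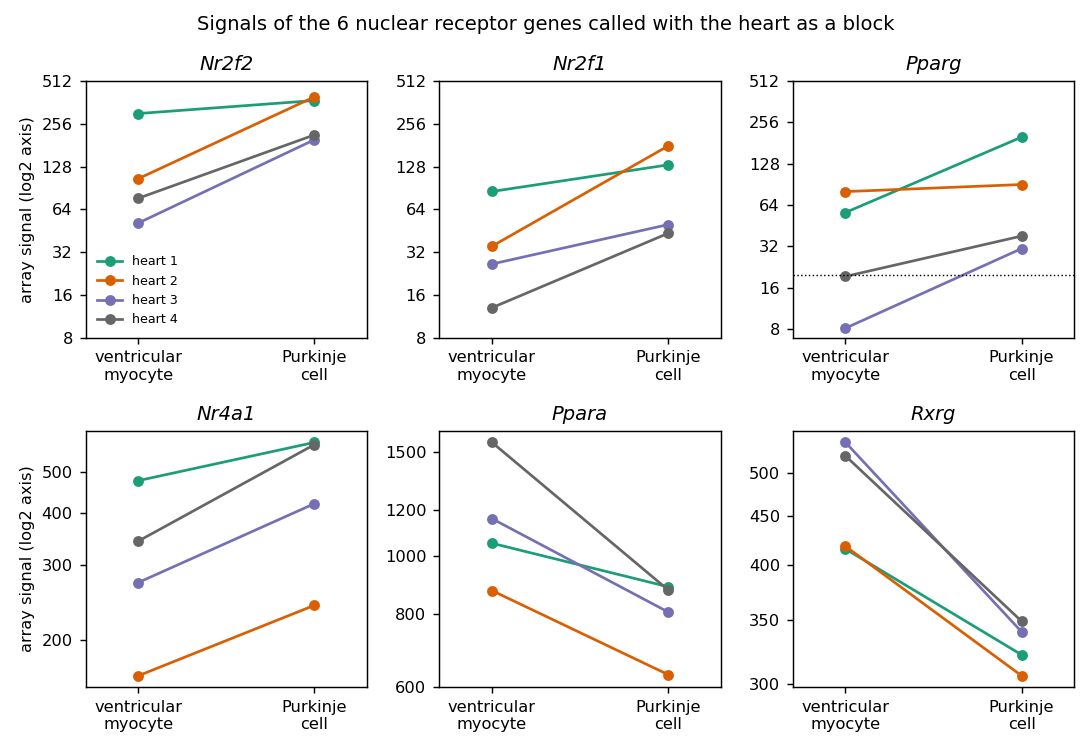
Array signal (log2 axis) of the 6 receptors that passed, with a line joining the ventricular and Purkinje arrays of each heart, and in the Pparg panel a dotted line at the limit of 19.9. All lines rise for Nr2f2, Nr2f1, Pparg and Nr4a1 and all fall for Ppara and Rxrg, and only for Rxrg do the groups not overlap.

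Which receptors passed depended on the hearts included. Without heart 1 there were 3 higher and 2 lower receptors (19.6% of all genes passed). Without heart 2 Nr2f2 alone passed (6.58% of all genes), and without heart 3 or 4 Nr2f1 and Nr2f2 passed (7.18% and 8.99%). Nr4a1 also passed without heart 1 only, at 0.64, against 0.56, 0.54 and 0.49 without hearts 2, 3 and 4 (limma adjusted p = 0.0641, 0.0805 and 0.0882). In hearts 1 and 2 alone no receptor passed in limma (2.95% of all genes). In hearts 3 and 4 alone Nr2f2, Nr4a1, Ppara and Rxrg passed (15.2%), at 1.71, 0.69, -0.68 and -0.62, against 1.11, 0.43, -0.36 and -0.41 in hearts 1 and 2. The difference between these pairs of hearts was not tested. Without the mean-variance trend no receptor passed (1.13% of all genes), and after quantile normalization 3 were higher and 2 lower (12.1%).

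**Figure D4:**
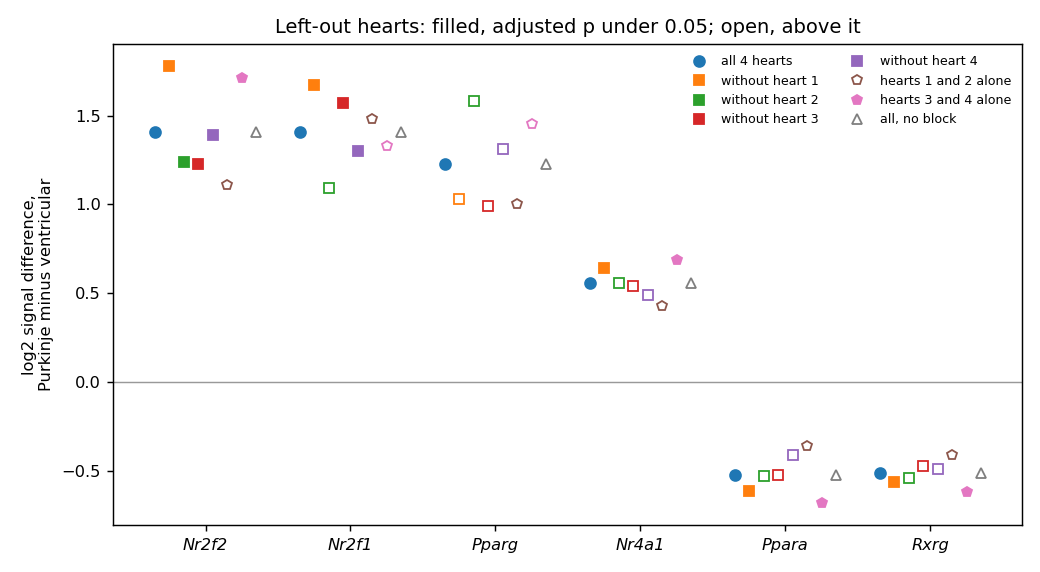
Log2 difference of the 6 receptors with all hearts, without each heart, in each pair of hearts alone and without the block (filled where the adjusted p was under 0.05, open otherwise). With 1 heart left out Nr2f2 stays filled in 4 of 4 cases (1.23 to 1.78) and Pparg in 0 of 4.

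Thyroid hormone receptors did not pass. Thra, the main thyroid hormone receptor of heart muscle, had signals of 326.2, 475.0, 536.2 and 539.8 on Purkinje and 397.4, 428.9, 399.2 and 370.6 on ventricular arrays. Purkinje array 1 was the lowest of all 8 and the other Purkinje arrays the highest. Its log2 difference was 0.21 ± 0.15 (95% interval -0.13 to 0.54). Thrb, the other receptor of that hormone, read 116.8, 148.3, 143.7 and 118.3 against 91.0, 130.9, 179.8 and 147.8, a difference of -0.03 (95% interval -0.46 to 0.41). The groups of both genes overlapped, and hearts 1 and 2 of Thrb ran opposite to hearts 3 and 4.

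Among retinoic acid receptors, Rarg came nearest to passing, at 0.75 ± 0.31 with every heart higher (limma adjusted p = 0.118). Rara gave 0.07 with the widest interval of the tested receptors (-1.03 to 1.18), and Rarb 0.18 (-0.47 to 0.83). Their partners Rxra and Rxrb did not pass. Rxra, the main retinoid X receptor of heart muscle, read 213.3, 292.6, 253.1 and 248.8 on Purkinje and 308.1, 265.1, 228.8 and 192.5 on ventricular arrays. The ventricular arrays of Rxra spanned its Purkinje range, and the difference was 0.03 (95% interval -0.35 to 0.41). Rxrb gave -0.22 (95% interval -0.59 to 0.16).

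Ppard, the PPAR expressed in most tissues, had signals of 204.2, 92.6, 129.9 and 145.4 on Purkinje and 130.4, 84.7, 155.2 and 163.0 on ventricular arrays. Hearts 1 and 2 were higher and hearts 3 and 4 lower on the Purkinje array, and the difference was 0.09 (95% interval -0.36 to 0.54). Rora, a circadian regulator, read 343.8, 428.1, 411.7 and 462.4 against 483.2, 448.7, 289.8 and 336.8. Its hearts were split the other way, and the difference was 0.10 (95% interval -0.28 to 0.48). The 8 probe sets of Rora above the limit ran from -1.89 to 0.66, and none passed among all probe sets. The sterol sensor Nr1h3, the bile acid receptor Nr1h4 and the xenobiotic sensor Nr1i3 gave 0.16, 0.13 and 0.45.

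Among steroid receptors, the glucocorticoid receptor Nr3c1 had signals of 499.6, 598.0, 900.1 and 831.0 on Purkinje and 531.2, 646.3, 698.2 and 729.6 on ventricular arrays. Hearts 3 and 4 were high in both groups, and the difference was 0.09 (95% interval -0.18 to 0.36). The mineralocorticoid receptor Nr3c2 read 125.5, 199.2, 163.3 and 154.0 against 53.8, 210.3, 119.5 and 116.6. Ventricular array 1 was its lowest, and heart 1 gave a difference of 1.22 against -0.08 in heart 2. Nr3c2 gave 0.50 ± 0.22 (95% interval 0.01 to 0.99) and did not pass after adjustment (limma adjusted p = 0.152).

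No estrogen-related receptor passed. Esrra, which drives mitochondrial genes with the coactivator Ppargc1a, read 192.9, 291.9, 252.0 and 175.1 on Purkinje and 276.5, 177.8, 278.3 and 275.1 on ventricular arrays. Heart 2 ran opposite to the other hearts, and the difference was -0.15 (95% interval -0.61 to 0.31), while its second probe set gave 0.63. Esrrb, known from stem cells and the inner ear, read 140.2, 121.0, 131.4 and 138.9 against 130.4, 192.6, 139.3 and 140.0, a difference of -0.17 (95% interval -0.59 to 0.26). Esrrg, abundant in oxidative muscle, read 473.5, 573.6, 762.5 and 737.3 against 464.6, 611.4, 842.3 and 819.4, a difference of -0.09 (95% interval -0.34 to 0.16). In Esrrg, hearts 3 and 4 were higher than hearts 1 and 2 on arrays of both cell types, and the groups of all 3 genes overlapped.

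The remaining NR2 orphan receptors did not pass. Nr2c1 gave -0.32 (95% interval -0.88 to 0.24) and its relative Nr2c2 0.10 (-0.22 to 0.42). Nr2f6, another relative of the COUP pair, gave -0.32 (95% interval -0.60 to -0.03; limma adjusted p = 0.117), and its second probe set gave -0.70 and passed among all probe sets (limma adjusted p = 0.0463). After median centring 9 receptors passed (36.5% of all genes did), Nr2f1 and Nr2f2 as higher and Esrra, Esrrg, Nr2c1, Nr2f6, Ppara, Rxrb and Rxrg as lower.

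Of 27 tested coregulators of the receptors 3 were higher and 2 lower, so 18.5% passed, close to the 17.1% of all genes, and the median was 0.04 against 0.05 over all genes. The coactivator Ncoa3 (0.72 ± 0.16, limma adjusted p = 0.00883) and Tbl1x, a corepressor exchange factor (0.59 ± 0.13), rose. Ppargc1a, the coactivator of PPARs and estrogen-related receptors, fell from 1722 ± 137 on ventricular to 1256 ± 215 on Purkinje arrays (SD, n = 4; log2 difference -0.47 ± 0.11, limma adjusted p = 0.0154). Perm1, a muscle regulator in the same pathway, fell by 0.51 on the log2 scale (limma adjusted p = 0.009). Without the block none of the 27 passed in limma (2.96% of all genes did), and without heart 1, 2, 3 or 4 the called genes numbered 6, 1, 0 and 1. Without those hearts 19.6%, 6.58%, 7.18% and 8.99% of all genes passed, and these shares hold for the lists below too.

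Of 10 retinoid handling genes 3 were higher (against 9.64% of all genes) and none lower, with a median of 0.76 (0.05 over all genes). After quantile normalization the median was 0.43 (-0.05 over all genes), and after centring 0.35 (-0.35). Aldh1a1, which makes retinoic acid, rose by 1.29 ± 0.30, Fabp5, a fatty acid carrier that also binds retinoic acid, by 1.23 ± 0.18, and Rarres2, which encodes chemerin, by 1.11 ± 0.18. The groups of all 3 genes overlapped, and ventricular array 1 of Fabp5 (1609.9) lay above Purkinje arrays 3 and 4 (892.8 and 470.2). Another Rarres2 probe set gave -0.20, and without the block none of the 10 passed in limma. Of 13 thyroid hormone and steroid handling genes 1 was higher and 4 lower (38.5% in either direction, against 17.1% of all genes), with a median of -0.19. They included Slc16a10, a thyroid hormone transporter (-0.68 ± 0.18), and Hsd17b10 (-0.77 ± 0.12), Hsd17b4 (-0.51 ± 0.11) and Hsd17b12 (0.59 ± 0.17), dehydrogenases and reductases that are also known from fatty acid metabolism. Of these 13, 1 passed without the block, and 5, 1, 2 and 2 passed without heart 1, 2, 3 or 4.

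Of 34 target genes of PPARs and estrogen-related receptors 15 fell (47.1% passed in either direction, against 17.1% of all genes), 1 rose and 18 did not pass, with a median of -0.30. Ucp3, a mitochondrial uncoupling protein, read 451.5, 175.6, 234.0 and 134.2 on Purkinje and 489.2, 416.8, 405.9 and 410.9 on ventricular arrays. Its log2 difference was -0.94 ± 0.21 (limma adjusted p = 0.0106), and Purkinje array 1 lay among the ventricular values. Mlycd, which removes malonyl-CoA (-0.85 ± 0.21), Cpt2, of mitochondrial fatty acid import (-0.73 ± 0.12), and the lipid droplet gene Cidea (-0.66 ± 0.20) also fell. Another Cpt2 probe set gave 0.37. The gene that rose was Fabp4, at 0.63 ± 0.10, which is also an adipocyte marker here and is known from capillary endothelium; it was named after its value was seen. Without the block 5 of the 34 fell and none rose. The called genes numbered 21, 5, 6 and 6 without heart 1, 2, 3 or 4. They numbered 3 in hearts 1 and 2 alone (2.95% of all genes) and 29 in hearts 3 and 4 alone (15.2%), pairs which the Gapdh ratio also parted. The part of RNA quality or of a lower share of myocyte RNA was not tested.

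Targets of the glucocorticoid and mineralocorticoid receptors went both ways, with 6 of 20 higher and 4 lower (50.0% in either direction, against 17.1% of all genes) and a median of 0.06. Sgk1, a kinase induced by both hormones, read 1664.3, 855.8, 757.2 and 511.6 on Purkinje and 975.5, 339.2, 221.2 and 340.6 on ventricular arrays, with heart 1 highest in both groups. Its log2 difference was 1.12 ± 0.18 (limma adjusted p = 0.00196, and 0.169 without the block). The cell cycle inhibitor Cdkn1a (1.11 ± 0.22), the anti-inflammatory mediator Tsc22d3 (0.86 ± 0.19) and the EGF receptor inhibitor Errfi1 (0.84 ± 0.16) rose too. Of these 20 genes none passed without the block in limma, and 8, 6, 4 and 6 passed without heart 1, 2, 3 or 4. The 4 that fell, named after their values were seen, were Klf15, a metabolic transcription factor (-0.71), the glutamine synthetase gene Glul (-0.68), and the lipid enzyme genes Lpin1 (-0.62) and Pnpla2 (-0.35). Dusp1, which rose by 0.30, is also in the immediate early list.

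Of 17 thyroid hormone targets 2 were higher (against 9.64% of all genes) and 5 lower (against 7.48%), with a median of -0.05. The potassium channel genes Kcnd2 (-1.22 ± 0.30) and Kcna5 (0.94 ± 0.25) moved in opposite directions. Thrsp, a lipogenic gene named for its response to the hormone, fell by 0.98 on the log2 scale (limma adjusted p = 0.00136), and Myh7, the slow myosin heavy chain that the hormone represses, rose by 0.68 ± 0.14. Among the 10 targets that did not pass were Myh6 (-0.10), Atp2a2 (-0.05) and Pln (-0.02), named after their values were seen. None of the 17 passed without the block in limma, and the called genes numbered 8, 2, 2 and 4 without heart 1, 2, 3 or 4.

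Targets of liver X, retinoic acid and vitamin D receptors were higher in 5 of 18 genes (against 9.64% of all genes) and lower in none, with a median of 0.32 (-0.09 after centring). The desaturase Scd2 read 127.8, 253.4, 381.0 and 314.9 on Purkinje and 61.2, 51.4, 56.6 and 54.9 on ventricular arrays, with no overlap. Its log2 difference was 2.16 ± 0.27 (limma adjusted p = 0.000634, and 0.00815 without the block). Srebf1, the regulator of lipid synthesis (1.53 ± 0.34), the desaturase Scd1 (1.31 ± 0.33) and Apoe, of lipoprotein transport (1.03 ± 0.27), also rose. So did Fasn (1.01 ± 0.29), and all that passed were genes of lipid metabolism or transport. The following were named after their values were seen. The retinoic acid targets Rarb (0.18), Cyp26b1 (1.52), Dhrs3 (-0.35), Crabp2 (-0.24) and Tgm2 (0.26) did not pass. Neither did the vitamin D target Cyp24a1 (-0.27) or the liver X targets Abca1 (0.04) and Abcg1 (0.37). Without the block 2 of the 18 were higher, and the called genes numbered 9, 1, 2 and 2 without heart 1, 2, 3 or 4.

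The list of COUP and atrial chamber genes had 7 of 13 higher (against 9.64% of all genes) and none lower, with a median of 1.41, and without the receptors themselves 5 of 11 with a median of 0.15. The list was mixed, and the next genes were named after their values were seen. The ventricular genes Myl2 (-0.05), Irx4 (-0.44) and Hey2 (-0.85) and the channel genes Kcnk3 (-0.23), Kcnj3 (0.04) and Kcnj5 (0.15) did not pass. Tbx5, which rose by 1.44, is also in the conduction list. Nppa, the atrial natriuretic peptide, read 3503.7, 5453.9, 8348.1 and 10308.4 on Purkinje and 1000.2, 746.0, 941.8 and 570.5 on ventricular arrays. The groups of Nppa did not overlap, and its log2 difference was 3.00 ± 0.26 (limma adjusted p = 8.68e-05, and 0.00145 without the block). The atrial light chain gene Myl7 read 1740.4, 3920.1, 377.1 and 4.7 against 10.2, 281.5, 21.7 and 0.9, so heart 2 was highest and heart 4 lowest in both groups. Myl7 gave 4.43 ± 0.58 (limma adjusted p = 0.000739, and 0.227 without the block), Myl4 3.72 ± 0.32, and Sln, an atrial regulator of the calcium pump, 3.08 ± 0.93 with 3 of 4 hearts higher. Signals under the limit of 19.9 make the size of the Myl7 and Sln differences uncertain: for Myl7 they were 10.2 and 0.9 on ventricular arrays 1 and 4 and 4.7 on Purkinje array 4, and for Sln 2.9, 4.1 and 2.2 on the same arrays. The mean log2 signal of the ventricular arrays alone was under the limit for both genes. Myl7 and Sln were thus tested only because of their Purkinje arrays, and their calls, counted above, are not separate support. Without the block 2 of the 13 were higher.

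**Figure D5:**
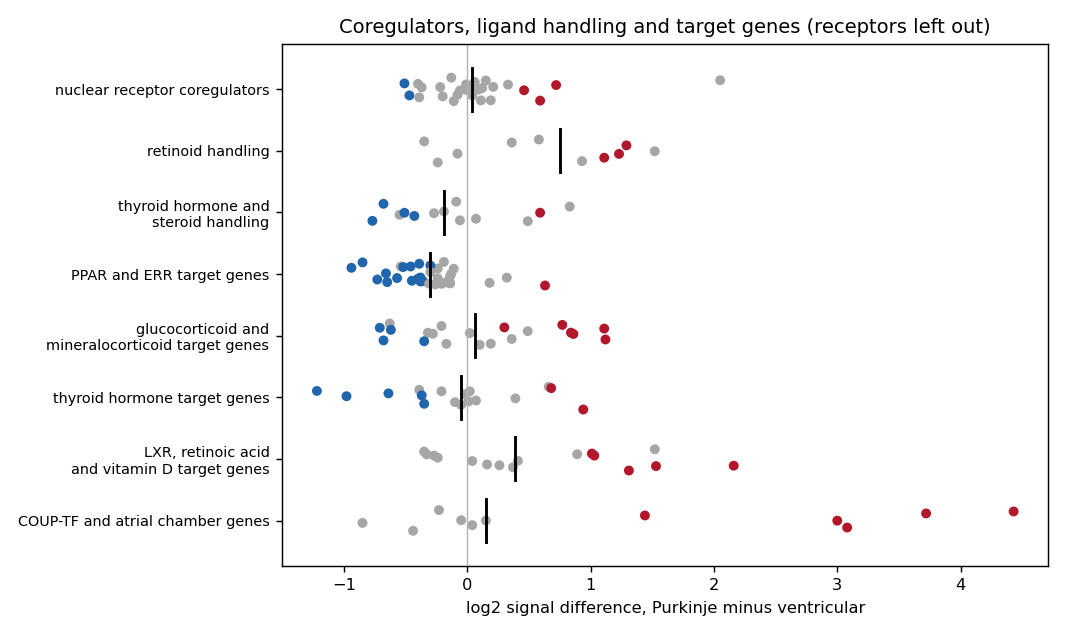
Log2 difference, Purkinje minus ventricular, of each tested gene of the 8 pathway lists without the receptors themselves (red higher, blue lower, grey not passing), with a black bar at each list's median. The PPAR and estrogen-related receptor targets have 15 lower and a median of -0.30, and the atrial list reaches 4.43 (Myl7, with ventricular signals down to 0.9).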

How the data were processed

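Total RNA of FACS-sorted cells was amplified with a NuGEN kit and hybridized to Affymetrix arrays with the standard biotin label, per the labels. The authors deposited linear intensity values; MAS5 is the tool given by the submitters' processing notes, without a version. The deposited intensity of every array had a trimmed mean of 150.001. Array medians were 36.1 to 42.9 on Purkinje and 28.2 to 32.3 on ventricular arrays, so they parted the cell types. Median centring removes this offset, which lowers every log2 difference alike. For each probe set the authors deposited a ratio of the group means as well, and a p-value whose test the file headers do not name.

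Gene names came from the platform annotation. Of 45101 probe sets 34958 had 1 gene symbol, 932 several, 1 of them naming Ppard, and 9211 none. The 64 control probe sets were left out. Signals were taken to log2 without further normalization. The 10 values of 0 were set to 0.1.

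The test was limma's (version 3.58.1, R 4.3.3), two-sided, by lmFit and by eBayes with the variance trended on the mean, with the heart as a block and Benjamini-Hochberg adjustment over 12318 genes at 0.05. The block follows the series design, which names 4 hearts. Arrays of 1 heart deviated together from their groups' means, at correlations of 0.381, 0.234, 0.267 and 0.275, but some arrays of different hearts came close: up to 0.197 between hearts 1 and 2 and up to 0.225 between hearts 3 and 4. "Passed among all probe sets" refers to the same fit on every named probe set above the limit. On simulated data the fit found 34 of the 100 genes given a 2-fold change and 75 of the 100 given a 4-fold change, and called 6 more. Alternatives (16) were no block, quantile normalization, median centring, other filters, averaging the probe sets of a gene, 16 added before log2, no trend, array weights, hearts left out, pairs of hearts, and the authors' p-value. Every listed receptor is accounted for. Values on every array are given for receptors that passed and for a set of others (Thra, Thrb, Ppard, Rora, Rxra, Esrra, Esrrb, Esrrg, Nr3c1 and Nr3c2). Per pathway list up to 4 genes were set to be named, those that passed with the largest change, and further genes were named after their values were seen. The receptors and lists were chosen with earlier results of these data known. Some lists share genes.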

Additional observations from a re-analysis of the deposited data

Results flagged for a closer look

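Among 32 groups of 4 arrays tested for a value standing apart (Dixon's ratio above its 95% critical value), 1 was found, where chance gives about 1 in 20. It was Esrra, whose ventricular array 2 read 177.8, well under the other ventricular arrays (275.1 to 278.3). The same heart gave the highest Purkinje signal of Esrra (291.9), and it was the only heart in which Esrra was higher on the Purkinje array.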

How the results depend on the processing

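No receptor passed in limma without the replicate block: 0 were higher and 0 lower, against 4 and 2, and genes of any kind numbered 365, against 2108. The same 0 and 0 came without the mean-variance trend (139 genes) and in hearts 1 and 2 alone (363 genes), and with the authors' deposited p-value after adjustment (0 genes). Median centring gave 2 higher and 7 lower (4500 genes), and the filter at the 60th percentile, which drops Nr2f1 and Pparg, gave 2 higher, as did hearts 3 and 4 alone. Leaving out 1 heart gave 1 to 3 higher and 0 to 2 lower receptors, and 811 to 2415 genes. None of the 6 receptors that passed changed sign under any of its 15 or 16 alternatives. Not all of these could change a sign. Without the block, the trend or the filter, and with the other filter, the difference is the same by construction. Averaging probe sets also changes nothing for Pparg, Rxrg, Nr2f1 and Nr4a1, which had 1 probe set above the limit.

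Called genes of the pathway lists moved as follows, in the order coregulators (5), retinoid handling (3), thyroid hormone and steroid handling (5), PPAR and estrogen-related receptor targets (16), glucocorticoid and mineralocorticoid targets (10), thyroid hormone targets (7), liver X, retinoic acid and vitamin D receptor targets (5) and COUP and atrial genes (7). The share of all genes that passed in each setting is given in brackets. Without the block they numbered 0, 0, 1, 5, 0, 0, 2 and 2 (2.96%). Without the trend they numbered 0, 1, 0, 0, 0, 0, 1 and 2 (1.13%), and with the authors' p-value all were 0. In hearts 1 and 2 alone they numbered 0, 2, 1, 3, 2, 1, 1 and 4 (2.95%). In hearts 3 and 4 alone the PPAR list had 29 and the liver X list 2 (15.2%). Centring gave 11 of 27 coregulators, 31 of 34 PPAR targets and 11 of 13 COUP and atrial genes (36.5%), so the coregulators stayed near the share of all genes. Quantile normalization gave 3 coregulators and 3 thyroid hormone and steroid handling genes (12.1%), and the mean of probe sets 3 of those handling genes (15.9%). Leaving out 1 heart gave 0 to 6, 2 to 4, 1 to 5, 5 to 21, 4 to 8, 2 to 8, 1 to 9 and 5 to 7 (6.58% to 19.6%). The cause was not tested.

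Of 10 named receptors that did not pass, 131 of 160 values kept their sign and call. Centring made Esrra (-0.55) and Esrrg (-0.49) pass and turned Thra (-0.20), Ppard (-0.31), Rora (-0.30), Rxra (-0.37) and Nr3c1 (-0.31). Quantile normalization turned Ppard (-0.09) and Rxra (-0.03). The mean of probe sets turned Rora (-0.05) and Esrra (0.24). Hearts 1 and 2 alone turned Thra (-0.07), Thrb (0.27), Rora (-0.28), Rxra (-0.19), Esrra (0.10) and Nr3c1 (-0.10), and hearts 3 and 4 alone Ppard (-0.21). Leaving out 1 heart gave -0.15 to 0.07 for Thrb, -0.10 to 0.20 for Ppard, -0.03 to 0.30 for Rora, -0.08 to 0.22 for Rxra, -0.44 to 0.02 for Esrra, -0.26 to 0.00 for Esrrb and 0.00 to 0.16 for Nr3c1. Signals near 19.9 limit Nr2f1 and Pparg on ventricular arrays.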
